A study of Saccharomyces cerevisiae EC1118 with 12 samples.

Results

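In the wine yeast Saccharomyces cerevisiae EC1118, 10 genes of the phosphate starvation (PHO) pathway were followed across 4 oxygen levels. They are the transporter genes PHO84 and PHO89, the transport regulator SPL2, the phosphatase genes PHO5 and PHM8, the polyphosphate genes VTC1, VTC3 and VTC4, the activator gene PHO4 and the inhibitor gene PHO81. The members were chosen by gene symbol in the array's annotation, taking the probe set with the highest mean, and the set was drawn around a measured value, the higher level of PHO84 at 20% oxygen. All 10 of 10 members had exactly 1 probe set, so the mean level decided nothing. They stand among 5449 genes fitted, and none was removed for a low value. Because the level of PHO84 prompted the choice, its differences from the anaerobic group are given as a description with no test.

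All cultures were chemostats of 1 strain, EC1118, fed a synthetic must (MS300) modified to make nitrogen limiting, at a dilution rate of 0.1 per hour and pH 3.5. The gas was nitrogen in the anaerobic group and held 1%, 5% or 20% oxygen in the others, with 3 arrays in each of 4 groups. For these 4 groups in turn the titles imply 0, 1.2, 2.7 and 5 micromolar dissolved oxygen, while the condition text gives 0.8, 4 and 11 micromolar for the oxygenated ones, so groups are named by the gas. The labels give no phosphate concentration, and they leave unsaid if each array had a chemostat of its own. P-values here therefore reflect array-to-array spread alone, which may be technical. Each array correlated with the rest of its group at 0.94 to 0.99, lowest for 1% array 3. The same array and anaerobic array 1 held the highest medians of 19 general stress genes, 9.67 and 9.91, against 8.38 to 9.13 in the other 10 arrays, and results were also computed without these 2 arrays that lay apart. Bulk arrays cannot tell fewer cells that express a gene from less RNA per cell.

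In yeast the transcription factor Pho4, with its partner Pho2, turns on genes for taking up, releasing and storing phosphate. When phosphate is plentiful the cyclin and kinase pair Pho80 and Pho85 phosphorylates Pho4, which then leaves the nucleus. When phosphate runs short the inhibitor Pho81 blocks the kinase and Pho4 stays active. Inositol pyrophosphates act in this signalling, and polyphosphate in the vacuole serves as a phosphate reserve.

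Among the members, PHO84 was higher at 5% and 20% oxygen than without oxygen, and PHO5 was lower at every oxygen level. PHO84 was 4.03-fold higher at 5% and 9.37-fold higher at 20% oxygen. PHO5 fell 3.66-fold at 1%, 4.75-fold at 5% and 5.34-fold at 20% oxygen. Of the 8 remaining members only VTC4 was called, higher by 1.63-fold at 20% oxygen, where 3.27% of all genes were called higher. That call depended on the arrays used. VTC1 and VTC3 were 1.47-fold and 1.42-fold higher there without being called. Of the 9 members other than PHO84, 6 differed upward and 3 downward at 20% oxygen. The higher level of PHO84 was therefore not matched by calls in the same direction across the other members.

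**Figure D1:**
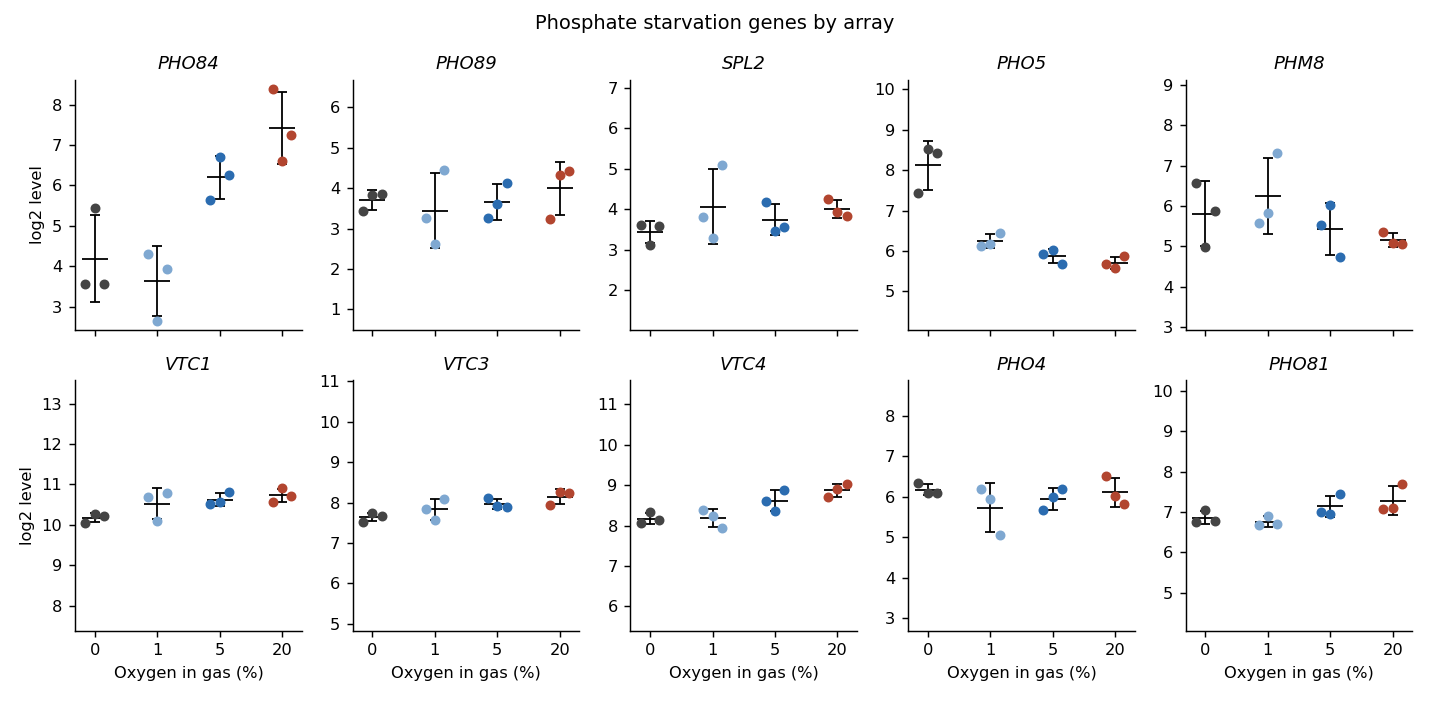
Log2 level of the 10 members in each array (points) against the oxygen in the sparging gas in percent, with the mean and SD of 3 arrays (bars); every panel spans the same number of log2 units. PHO84 stands at 5.65 or above in all arrays at 5% and 20% oxygen, PHO5 stands at 7.43 or above only in the anaerobic arrays, and the other panels are flatter.

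PHO84 encodes the high-affinity proton-coupled phosphate transporter. Its log2 level was 3.57, 5.44 and 3.56 in the anaerobic arrays, 4.31, 2.66 and 3.94 at 1% oxygen, 5.65, 6.70 and 6.25 at 5%, and 8.38, 6.62 and 7.26 at 20%. Arrays at 5% and 20% oxygen were all above every anaerobic and 1% array, while the anaerobic and 1% arrays overlapped, as did the 5% and 20% arrays. The group means were 4.19 ± 1.08, 3.63 ± 0.87, 6.20 ± 0.52 and 7.42 ± 0.89 (SD, n = 3) in order of oxygen. The difference from anaerobic was -0.56 ± 0.59 at 1%, 2.01 ± 0.59 at 5% and 3.23 ± 0.59 at 20% oxygen (log2, ± standard error of the fit). Anaerobic array 2 held the highest anaerobic value, and without it the difference at 1% oxygen was 0.07 and that at 20% was 3.85. Without the 2 arrays that lay apart the differences at 1%, 5% and 20% were -1.02, 1.70 and 2.92.

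Between 5% and 1% oxygen PHO84 was higher by 2.57 ± 0.59 with no overlap of arrays. This difference uses neither the anaerobic nor the 20% arrays. The set was still chosen with earlier results of these data known, so the test is not independent of that choice. Its p-values and interval therefore serve only as a description. The standard error of the difference comes from all 4 groups, the anaerobic and 20% arrays included. The difference was not called after adjustment by the Benjamini-Hochberg method in limma (adjusted p = 0.479), nor with only these 2 groups fitted (adjusted p = 0.894), and its adjusted p was 0.216 to 1.00 over all alternatives. No gene of 5449 was called in that comparison, or 0%, while 265 had an unadjusted p under 0.05. The 95% interval of the difference for this single gene, not adjusted for the number of genes, was 1.27 to 3.86. From 5% to 20% oxygen PHO84 differed by 1.22 ± 0.59, which is given as a description since the 20% arrays prompted the choice. Without 20% array 1, the highest, that difference was 0.74. No gene was called in that comparison either (0%, with 149 at an unadjusted p under 0.05 in limma).

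PHO89 encodes the sodium-coupled phosphate transporter, which works best at alkaline pH. Its levels were 3.44, 3.82 and 3.86 in the anaerobic arrays and 3.24, 4.33 and 4.42 at 20% oxygen, and these groups overlapped. At 1% oxygen they were 3.27, 2.61 and 4.44, and at 5% they were 3.25, 3.60 and 4.13. The anaerobic values lay inside the spread of each oxygenated group. The difference at 20% oxygen was 0.29 ± 0.44 (adjusted p = 0.749), with a 95% interval of -0.66 to 1.24.

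SPL2 encodes a small protein that lowers low-affinity phosphate uptake. It read 3.61, 3.12 and 3.60 in the anaerobic arrays, 3.81, 3.29 and 5.09 at 1%, 4.18, 3.47 and 3.57 at 5%, and 4.25, 3.93 and 3.83 at 20% oxygen. The highest value belonged to 1% array 3, and the 20% arrays lay just above the anaerobic ones. The difference at 20% oxygen, 0.56 ± 0.38, was not called (adjusted p = 0.411). PHO84, PHO89, SPL2 and PHM8 are 4 members with a mean below 5.84, the level under which the lowest 25% of genes lay. RMA compresses differences at such low levels.

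PHO5 encodes the main repressible acid phosphatase, a secreted enzyme that frees phosphate outside the cell. Its levels were 7.43, 8.53 and 8.41 in the anaerobic arrays, 6.13, 6.17 and 6.46 at 1% oxygen, 5.93, 6.02 and 5.67 at 5%, and 5.68, 5.57 and 5.87 at 20%. Every oxygenated array was below every anaerobic array, with the lowest anaerobic value in array 1. PHO5 fell at every oxygen level, with a difference of -1.87 ± 0.27 at 1% (adjusted p = 0.00801), -2.25 ± 0.27 at 5% (adjusted p = 0.0011) and -2.42 ± 0.27 at 20% oxygen (adjusted p = 0.00035). The call was kept under all 20 alternatives in each of these comparisons, with adjusted p up to 0.0376. Without the 2 arrays that lay apart the differences were -2.32, -2.60 and -2.77. These 3 comparisons share the anaerobic arrays. Among the oxygenated groups the means were 6.25 ± 0.18, 5.87 ± 0.18 and 5.71 ± 0.15 (SD, n = 3), and neighbouring levels were not called apart. The step from 1% to 5% oxygen was -0.38 ± 0.27 (adjusted p = 0.884) and that from 5% to 20% was -0.17 ± 0.27 (adjusted p = 0.999).

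The acid phosphatase genes related to PHO5 are named here after their values were seen, because near-identical copies can share probes. PHO11 read 7.14, 7.86 and 7.64 in the anaerobic arrays and 6.90, 7.70 and 7.35 at 20% oxygen. Its probe set is of a kind that can match several genes, and PHO12 was not analysed here, so that signal may belong to either copy. PHO3, the acid phosphatase gene known for repression by thiamine, read 9.68, 10.19 and 9.99 without oxygen and 8.55, 10.26 and 10.14 at 20%. Both sets of arrays overlapped, and neither difference at 20% oxygen was called (-0.23 ± 0.29 for PHO11, adjusted p = 0.702, and -0.30 ± 0.44 for PHO3, adjusted p = 0.739). In the S288C reference order PHO3 and PBY1 lie next to PHO5, and PBY1 differed by -0.18 ± 0.17 at 20% oxygen (adjusted p = 0.578). TUB3, next to PHO84 in that order, differed by -0.60 ± 0.32 (adjusted p = 0.273).

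PHM8 encodes an intracellular phosphatase of lysophosphatidic acid and nucleotides. It read 6.58, 4.98 and 5.89 in the anaerobic arrays, 5.57, 5.84 and 7.31 at 1%, 5.52, 6.02 and 4.74 at 5%, and 5.36, 5.08 and 5.05 at 20% oxygen. Each oxygenated group overlapped with the anaerobic arrays, while the 20% arrays lay below all 1% arrays, and the highest values were in 1% array 3 and anaerobic array 1. The difference at 20% oxygen was -0.65 ± 0.49 from anaerobic (adjusted p = 0.465) and -1.07 ± 0.49 from 1% oxygen (adjusted p = 0.345), and neither was called. These are the 2 arrays with the highest stress gene medians, and the part of this in the PHM8 values was not tested.

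VTC1, VTC3 and VTC4 encode subunits of the vacuolar transporter chaperone complex, which makes polyphosphate and moves it into the vacuole, with Vtc4 as the catalytic subunit. VTC4 read 8.05, 8.33 and 8.13 in the anaerobic arrays, 8.39, 8.25 and 7.95 at 1%, 8.61, 8.37 and 8.88 at 5%, and 8.71, 8.90 and 9.02 at 20% oxygen. All arrays at 5% and 20% were above the anaerobic arrays, and those at 1% were not. VTC4 rose by 0.71 ± 0.20 at 20% oxygen (adjusted p = 0.0493). It was not called at 5% (0.45 ± 0.20, adjusted p = 0.141) or at 1% (0.02 ± 0.20, adjusted p = 0.95). The call at 20% ended under 12 of 20 alternatives, with adjusted p up to 0.156, and these included leaving out any one of 9 of the 12 arrays, namely each anaerobic array, arrays 1 and 2 at 1% and at 5%, and arrays 2 and 3 at 20% oxygen.

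VTC1 read 10.05, 10.26 and 10.22 in the anaerobic arrays, 10.68, 10.09 and 10.80 at 1%, 10.51, 10.57 and 10.80 at 5%, and 10.57, 10.90 and 10.72 at 20% oxygen. VTC3 read 7.53, 7.74 and 7.66 without oxygen, 7.84, 7.58 and 8.08 at 1%, 8.12, 7.92 and 7.89 at 5%, and 7.93, 8.26 and 8.24 at 20%. For both genes the anaerobic arrays were below every array at 5% and 20% oxygen, and overlapped with those at 1%. Neither was called at 20% oxygen (0.55 ± 0.21 for VTC1, adjusted p = 0.124, and 0.50 ± 0.19 for VTC3, adjusted p = 0.116). Their 95% intervals, not adjusted for the number of genes, were 0.09 to 1.01 and 0.10 to 0.91. In the S288C order VTC3 lies between ULP1 and CTF19, which differed by 0.22 ± 0.22 and -0.04 ± 0.39 at 20% oxygen, and neither was called. CTF19 also stands in the list of other known targets of the pathway. Its mean of 2.16 lay below the 5.84 that bounds the lowest 25% of genes.

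The genes of the activator and the inhibitor, PHO4 and PHO81, showed no called difference. PHO4, which encodes the activator, read 6.33, 6.09 and 6.09 in the anaerobic arrays and 6.51, 6.01 and 5.82 at 20% oxygen, and the groups overlapped. Its lowest value, 5.05, was in 1% array 3. The difference at 20% oxygen was -0.06 ± 0.29 (adjusted p = 0.932), with a 95% interval of -0.69 to 0.57. PHO81, which encodes the kinase inhibitor and is itself a target of Pho4, read 6.76, 7.05 and 6.77 without oxygen, 6.67, 6.91 and 6.70 at 1%, 7.0, 6.96 and 7.45 at 5%, and 7.06, 7.09 and 7.69 at 20%. The 20% arrays lay above the anaerobic ones, the closest of them only just, and the difference of 0.42 ± 0.22 was not called (adjusted p = 0.256). Without 20% array 3, which held the highest value, it was 0.22.

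**Figure D2:**
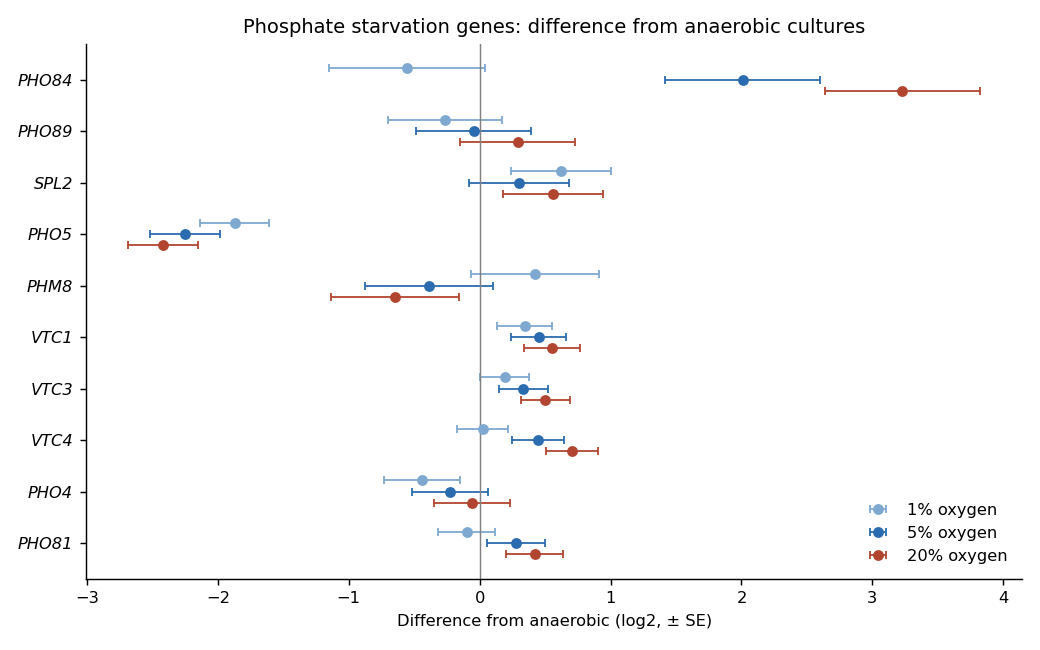
Difference of each member from the anaerobic group (log2, horizontal axis) at 1%, 5% and 20% oxygen, with bars for the standard error of the fit. PHO84 stands at 2.01 and 3.23 at 5% and 20% oxygen, PHO5 between -1.87 and -2.42 at all levels, and the other members between -0.65 and 0.71.

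The counts of called members other than PHO84 were small, and are set here beside those of all genes. At 1% oxygen 0 of 9 were called higher and 1 of 9 lower, beside 5.27% and 11.2% of all genes. At 5% the members' counts were the same, with 5.32% of all genes higher and 11.0% lower. At 20% oxygen 1 of 9 was called higher and 1 of 9 lower, against 3.27% and 4.64%. The split of all calls moved with scaling, from 287 higher and 608 lower to 467 and 480 under quantile and 393 and 519 under median scaling at 1% oxygen, and from 290 and 599 to 454 and 560 at 5%. The median difference of the 9 members was 0.02, 0.28 and 0.42 at 1%, 5% and 20% oxygen, beside 0.00, 0.07 and 0.05 over all genes. Anaerobic and oxygenated arrays did not overlap, in either direction, for 1, 4 and 6 of the 9 members in these comparisons. Of all genes 44.5%, 47.7% and 34.2% did not overlap in either direction. PHO5, below the anaerobic arrays, is counted at each level, and the other members counted lay above them.

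The moderated F test over the 4 groups called PHO5 (adjusted p = 0.00129) among the 9 members, where 10.1% of all genes were called. VTC4 was next, with an adjusted p = 0.0704. Between 20% and 1% oxygen none of the 9 members was called, and 0.367% of all genes were. In that comparison PHO84 was higher by 3.78 ± 0.59 and PHO5 differed by -0.55 ± 0.27 (adjusted p = 0.364).

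The members varied together only in part. Over the 12 arrays the Pearson correlations of the 45 member pairs had a median of 0.12, and 19 were below 0. The highest were 0.855 for VTC1 with VTC3 and 0.845 for VTC4 with PHO81, and the lowest was -0.822 for PHM8 with VTC4. With deviations from the group means, which remove the oxygen levels, these became 0.71, 0.676 and -0.905. PHO84 had its highest correlation among the members with VTC4, 0.78 over the 12 arrays, which was -0.01 within groups. With PHO5 it was -0.49, and 0.39 within groups. All these are descriptions over arrays that share groups, strain and processing.

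Other phosphate genes, not all of them known targets or signalling genes of the pathway, were counted in lists by role. The median differences of these lists at 20% oxygen lay between 0.18 and 0.55. Of 11 other known targets of the pathway, PHM6 and GIT1 rose at 20% oxygen and none fell (median 0.46), where 3.27% of all genes were called higher and 4.64% lower, with a median of 0.05. At 5% PHM6 rose and GDE1 fell, and at 1% only GDE1 fell. Of all genes 5.32% were called higher and 11.0% lower at 5%, and 5.27% and 11.2% at 1%. PHM6, a phosphate-regulated gene, read 3.92, 4.87 and 3.90 in the anaerobic arrays, 5.11, 4.39 and 4.98 at 1%, 5.07, 5.42 and 5.49 at 5%, and 5.39, 5.76 and 6.06 at 20% oxygen. As for PHO84, anaerobic array 2 was the highest anaerobic array, and the arrays at 5% and 20% were above all anaerobic ones. Among the 20% arrays PHM6 was lowest in array 1, where PHO84 was highest. At 1% oxygen PHM6 differed from anaerobic by 0.60 and PHO84 by -0.56. PHM6 rose by 1.09 ± 0.30 at 5% (adjusted p = 0.0275) and by 1.51 ± 0.30 at 20% (adjusted p = 0.0112). The call at 20% ended without anaerobic array 3 (adjusted p = 0.0582), and that at 5% without anaerobic array 1 or 3 or 5% array 2 or 3, or without the 2 arrays that lay apart (adjusted p up to 0.106). Its correlation with PHO84 was 0.81 over the 12 arrays and 0.61 within groups.

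GIT1 encodes a permease for glycerophosphoinositol, an organic source of phosphate. It read 4.55, 4.61 and 4.86 in the anaerobic arrays, 5.11, 4.88 and 6.74 at 1%, 6.17, 6.17 and 5.29 at 5%, and 5.93, 6.55 and 7.50 at 20% oxygen. Every oxygenated array was above the anaerobic ones, with a wide spread at 1% and 20%. GIT1 rose by 1.99 ± 0.49 at 20% (adjusted p = 0.0283) and was not called at 5% (1.20 ± 0.49, adjusted p = 0.108). The call ended on leaving out any anaerobic array or 20% array 2 or 3 (adjusted p up to 0.0961). GDE1, a glycerophosphocholine phosphodiesterase gene, fell by 1.20 ± 0.29 at 1% (adjusted p = 0.0217) and by 1.23 ± 0.29 at 5% (adjusted p = 0.0144). It was not called at 20% (-0.61 ± 0.29, adjusted p = 0.216), and the step from 5% to 20% was 0.62 ± 0.29 (adjusted p = 0.999). The GDE1 calls ended without anaerobic array 2, at 1% also without anaerobic array 3 or with only the 2 groups fitted, and at 5% also without 5% array 1 or 2 (adjusted p up to 0.0916 at 1% and 0.0632 at 5%).

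**Figure D3:**
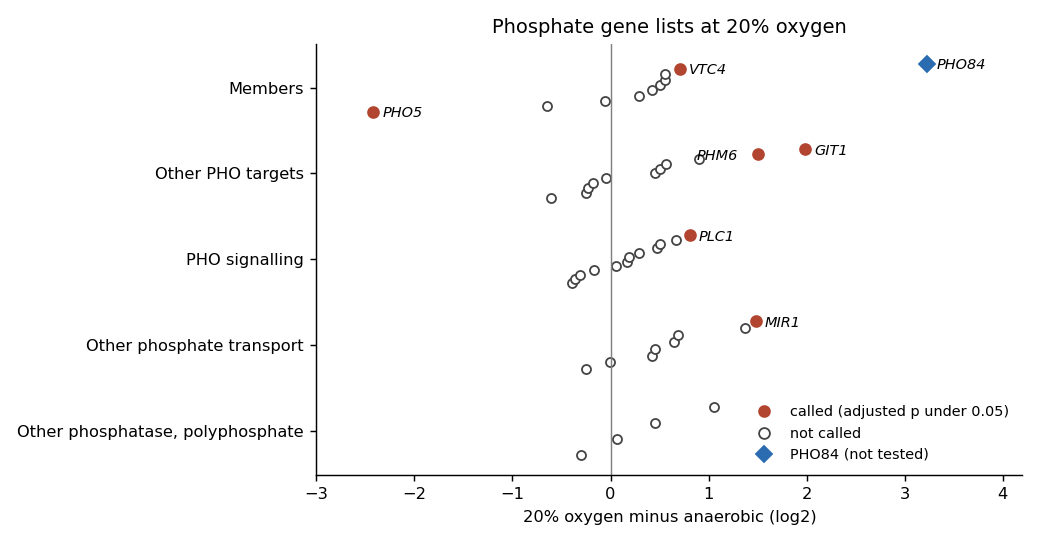
Difference between 20% oxygen and anaerobic cultures (log2, horizontal axis) for each gene of the members and of 4 lists of other phosphate genes; filled circles passed the adjusted test, open circles did not, and the diamond is PHO84, which was not tested. Called genes other than PHO5 lie between 0.71 and 1.99, and PHO5 lies at -2.42.

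Of 12 signalling genes, 1 was called higher at 20% oxygen and none lower (median 0.18), beside the same 3.27% and 4.64% of all genes. This was PLC1, the phospholipase C gene that feeds inositol polyphosphate synthesis, which rose by 0.74 ± 0.17 at 5% (adjusted p = 0.0135) and by 0.81 ± 0.17 at 20% (adjusted p = 0.0159). At 1% oxygen IPK1, an inositol polyphosphate kinase gene, rose by 0.77 ± 0.23 (adjusted p = 0.0393). VIP1, which encodes an inositol pyrophosphate synthase, fell there by 1.13 ± 0.30 (adjusted p = 0.0291). Of all genes 5.27% were called higher and 11.2% lower at 1% oxygen, and 5.32% and 11.0% at 5%. The genes of the kinase pair, PHO80 and PHO85, were not called at any level. Each of these 3 genes lost its call in some alternatives. PLC1 did without anaerobic array 3 or 5% array 2 at 5%, and without any anaerobic array or 20% array 2 at 20% (adjusted p up to 0.0713). VIP1 did without any anaerobic array or 1% array 2 or 3, or without the 2 arrays that lay apart (up to 0.114), and IPK1 under 10 of 20 alternatives (up to 0.24), which were leaving out any anaerobic array, 1% array 1 or 3, 5% array 1 or 2, or the 2 arrays that lay apart, fitting only the 2 groups, and the replicate number as a block.

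Of the 8 genes listed under other phosphate transport, MIR1 rose at 5% and 20% oxygen and no other was called (median 0.55 at 20%). Of all genes 5.32% and 3.27% were called higher at those levels. MIR1 encodes the mitochondrial phosphate carrier, which supplies phosphate for ATP synthesis. It read 8.80, 8.56 and 8.63 in the anaerobic arrays, 9.31, 9.43 and 8.59 at 1%, 10.26, 9.69 and 9.94 at 5%, and 10.26, 10.22 and 9.96 at 20% oxygen. The arrays at 5% and 20% were well above the anaerobic ones, while 1% array 3 was not. MIR1 rose by 1.30 ± 0.24 at 5% (adjusted p = 0.00502) and by 1.48 ± 0.24 at 20% (adjusted p = 0.00421), and kept both calls under all 20 alternatives. At 1% oxygen PHO90, a low-affinity phosphate transporter gene, had the smallest p of the list and was not called (-0.56 ± 0.25, adjusted p = 0.131).

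Among 4 further phosphatase and polyphosphate genes DIA3, of the acid phosphatase family, rose by 1.33 ± 0.34 at 5% oxygen (adjusted p = 0.0219). It was not called at 1% (0.84 ± 0.34, adjusted p = 0.103) or at 20% (1.05 ± 0.34, adjusted p = 0.0815). The call at 5% ended without anaerobic array 1 or 3 or 5% array 1 (adjusted p up to 0.0825). The other genes of this list were not called at any level. Of all genes 5.27%, 5.32% and 3.27% were called higher at 1%, 5% and 20% oxygen, and 11.2%, 11.0% and 4.64% lower.

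**Figure D4:**
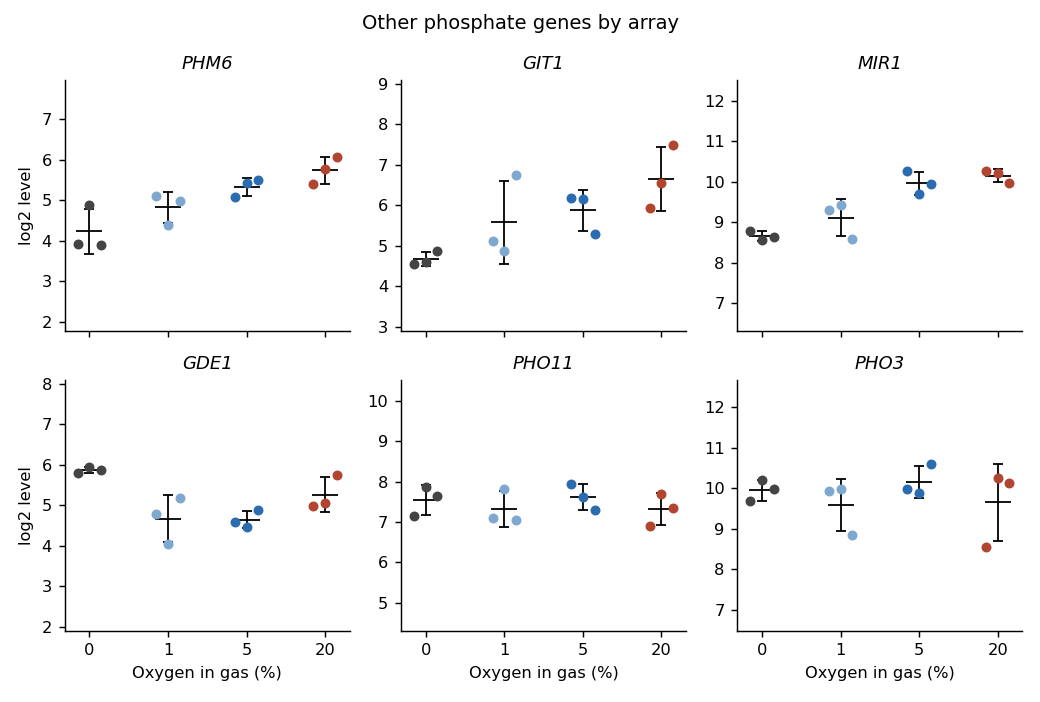
Log2 level of 6 other phosphate genes in each array (points) against the oxygen in the gas in percent, with the mean and SD of 3 arrays (bars); every panel spans the same number of log2 units. MIR1 stands at 9.69 or above in all arrays at 5% and 20% oxygen and at 8.80 or below without oxygen, PHM6 and GIT1 are higher at 20% oxygen, and PHO11 and PHO3 overlap across all groups.

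The genes whose pattern over the 12 arrays was most like that of PHO84, by Pearson correlation among all genes, were MFA1 (0.92), FLO1 (0.90), MF(ALPHA)1 (0.88), AFB1 (0.87) and RSC3 (0.87). MFA1 and MF(ALPHA)1 encode mating pheromone precursors, and FLO1 encodes a cell surface flocculin. None of the 5 is a phosphate gene by the lists used. A high correlation did not mean a like size. At 20% oxygen FLO1 and MF(ALPHA)1 differed from anaerobic by 2.75 and 3.95, but MFA1, AFB1 and RSC3 by only 0.55, 0.90 and 0.44. The means of MFA1, 4.35, and MF(ALPHA)1, 5.42, lay below the 5.84 that bounds the lowest 25% of genes. So did every group mean of AFB1, and those of FLO1 except the one at 20% oxygen, 5.99. Low signal limits what these genes can show too. Within groups the correlations were between 0.35 for FLO1 and 0.71 for RSC3. By rank correlation only 1 of these 5 stayed among the 5 highest, and none did over the 4 group means. By Pearson correlation PHM6 ranked 17 of all genes and VTC4 ranked 33, and by rank correlation they ranked 15 and 60.

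Genes of sulfate limitation also spread widely among the 20% arrays. PHO84 was lowest in 20% array 2, where the sulfate transporter gene SUL1 read 3.29, against 8.02 and 9.72 in 20% arrays 1 and 3. The median of 11 sulfate limitation genes was 8.69 in 20% array 2 and 9.67 and 11.21 in arrays 1 and 3, and 8.92 to 9.27 in the anaerobic arrays. Among the 20% arrays PHO84 was highest in array 1 while that list was highest in array 3. Among the 5% arrays SUL1 and the list median were highest in array 1, at 6.17 and 10.11, where PHO84 was lowest, at 5.65. The within-group correlation of SUL1 with PHO84 was 0.27. At 20% oxygen 1 of these 11 genes was called higher, against 0 at 1% and 5%. Of 8 zinc limitation genes 1 was called lower at 20%, 1 higher and 1 lower at 5%, and 1 lower at 1%, and of 16 haploid mating genes 2 were called higher at 20% oxygen, 3 higher and 1 lower at 5%, and 1 each way at 1%. Of the 19 stress genes 2, 3 and 2 were called lower at 1%, 5% and 20% oxygen, and none higher. Over all genes 5.27%, 5.32% and 3.27% were called higher and 11.2%, 11.0% and 4.64% lower at these levels. The part of these groups in the PHO84 values was not tested.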

How the data were processed

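Biotin-labelled cRNA was hybridised to 12 Affymetrix arrays, per the labels' protocols. The deposited log2 values were made by the authors with RMA, per the submitters' processing notes, without version or settings, and the log2 scale was read from the values. Of 5716 probe sets, 5498 had 1 gene and 218 none in the platform annotation, and all identifiers matched the reference table (12 symbols updated). The highest-mean probe set was kept for 47 genes with several, leaving 5449.

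The limma package, version 3.58.1, under R 4.3.3 estimated the 4 group means from the 12 arrays jointly (lmFit, eBayes; 8 residual and 4.11 prior degrees of freedom). P-values were adjusted by Benjamini-Hochberg over all genes, and a gene was called under 0.05. A difference of 1 is a 2-fold change. The number of arrays limits the precision. The fit was tested on simulated data.

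The members and lists were chosen with earlier results of these data known. Named genes are the members, up to 2 called rises and 2 called falls per list and comparison (or else the smallest p), and the 5 genes most correlated with PHO84. PHO3, PHO11, PHO80, PHO85, SUL1 and the genes next to members were named outside this rule, after values were seen. GPP2 and SND3 stand for HOR2 and PHO88, and PHO12, VTC5 and PPN2 were not analysed here. Promoter motifs were not searched. Alternatives were quantile and median scaling, no dim genes, mean of probe sets, a trended robust prior, the replicate number as a block, only the 2 groups compared, and each array left out. A fit without anaerobic array 1 and 1% array 3, which lay apart, was added after seeing the data.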

Additional observations from a re-analysis of the deposited data

How the results depend on the processing

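Leaving out PHO84, the members called numbered 1 at 1% and 1 at 5% oxygen against anaerobic, and 0 in the comparisons among oxygenated groups, and these counts held under every alternative run. At 20% oxygen the count of 2 became 1 with quantile scaling, with the replicate block and without the 2 arrays that lay apart, and was between 1 and 2 with single arrays left out, since VTC4 was lost (adjusted p = 0.0551, 0.0963 and 0.084 in the first 3). The cause was not tested. Of same-numbered arrays, 2 of 18 pairs deviated together at a correlation over 0.1 (range -0.32 to 0.36), so the numbers were not taken to pair samples; the replicate block gave 523, 697 and 303 called genes at 1%, 5% and 20% oxygen, against 895, 889 and 431. With single arrays left out these counts were 36 to 985, 400 to 1303 and 153 to 758, for 20% against 1% oxygen 5 to 28 (20 without omission), for 5% against 1% 0 to 6, and in the F test 100 to 744 (553). With only the 2 groups fitted the first 2 were 447 and 1602, and without the 2 arrays that lay apart the count at 1% was 155 and that of 20% against 1% was 44. The F test called 308 genes with the block. PHO84's difference at 20% oxygen stayed between 2.75 and 3.85, and at 5% between 1.69 and 2.64. Of 1001 comparisons of an uncalled member with its alternative, 29 changed sign, and no called value did. PHO84 is absent from the fit without dim genes. Low signal limits what PHO89, SPL2 and PHM8 can show. The means of PHM6, GIT1, GDE1 and DIA3 also lay below 5.84, so low signal limits their calls too.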
